A study of Mus musculus with 54 samples.

Results

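The expression of 10 cell cycle genes was examined in the liver of mice given the plasticizer di-isononyl phthalate (DINP), as a readout of growth stimulation by a compound that raised PPARα target genes at its high dose. The genes were Ccnd1, Cdkn1a, Myc, Gadd45b, Mcm6, Top2a, Cdk1, Ccna2, Ccnb1 and Mki67. They were named by symbol, with earlier results of these data known, and each stood on a single row among the 20162 rows of the expression table. The medial liver lobe was taken from 54 wild-type male C57Bl/6J mice that ate a high-fat diet (HFD) from 8 weeks of age and swallowed DINP in gelatin pellets every day for 20 weeks. The control group (n = 14) received the same diet and a pellet without DINP, and the exposed groups received 1.5 (low dose, n = 13), 15 (middle dose, n = 13) or 150 mg/kg bw/d (high dose, n = 14). All groups thus shared the HFD, and mice on another diet were not analysed here. The mice were housed singly, killed by CO2 inhalation and perfused, and 1 library was made from each liver.

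Adult hepatocytes rest outside the cell cycle and re-enter it after tissue loss or a mitogen. Entry is marked by cyclin D1 (Ccnd1), which activates CDK4 and CDK6, and is opposed by p21 (Cdkn1a), an inhibitor of cyclin-dependent kinases and a classical p53 target. The helicase subunit Mcm6 belongs to the licensing of DNA replication, and topoisomerase IIα (Top2a), Cdk1, cyclin A2 (Ccna2), cyclin B1 (Ccnb1) and Ki-67 (Mki67) accumulate in S, G2 and M phase. In rodents, activators of PPARα enlarge the liver and can drive a wave of hepatocyte division, early after the start of dosing, alongside the induction of peroxisomal and microsomal fatty acid oxidation. Transcripts such as these are used to look for such a wave. In all groups here the livers were taken after 20 weeks of dosing, with no earlier time point. A wave that had ended before then was therefore not tested.

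Many promoters of genes of S, G2 and M phase carry short elements through which they are switched together. The windows below show some of these promoters beside each other. The 300 bases run from 250 before to 50 after the start site of transcription, are written 5′ to 3′ on the strand of the gene, and come from RefSeq on GRCm38.p6. Capitals mark each cell cycle genes homology region (CHR, TTTGAA or its reverse complement TTCAAA) and each E2F element (TTTCGCGC or TTTGGCGC or their reverse complements).
Cdk1, chr10:69352863-69353162, minus strand: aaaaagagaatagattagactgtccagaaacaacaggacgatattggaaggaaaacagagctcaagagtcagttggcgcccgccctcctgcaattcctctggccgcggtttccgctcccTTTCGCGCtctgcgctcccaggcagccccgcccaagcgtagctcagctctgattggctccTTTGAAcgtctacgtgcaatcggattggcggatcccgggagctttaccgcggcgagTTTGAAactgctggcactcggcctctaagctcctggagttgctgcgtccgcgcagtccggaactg
Mki67, chr7:135716330-135716629, minus strand: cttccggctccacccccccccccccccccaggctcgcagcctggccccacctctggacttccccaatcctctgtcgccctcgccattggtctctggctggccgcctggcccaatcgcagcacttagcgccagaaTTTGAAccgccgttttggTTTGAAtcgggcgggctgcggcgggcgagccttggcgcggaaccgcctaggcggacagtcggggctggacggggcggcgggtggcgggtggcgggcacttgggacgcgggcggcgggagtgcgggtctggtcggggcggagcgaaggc
Top2a, chr11:99024140-99024439, minus strand: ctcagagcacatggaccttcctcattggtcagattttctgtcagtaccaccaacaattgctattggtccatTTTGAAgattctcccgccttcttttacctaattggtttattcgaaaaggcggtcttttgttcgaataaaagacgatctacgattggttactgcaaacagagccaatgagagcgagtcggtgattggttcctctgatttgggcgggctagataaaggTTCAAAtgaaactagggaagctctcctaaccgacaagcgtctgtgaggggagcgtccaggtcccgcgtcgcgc
Mcm6, chr1:128359656-128359955, minus strand: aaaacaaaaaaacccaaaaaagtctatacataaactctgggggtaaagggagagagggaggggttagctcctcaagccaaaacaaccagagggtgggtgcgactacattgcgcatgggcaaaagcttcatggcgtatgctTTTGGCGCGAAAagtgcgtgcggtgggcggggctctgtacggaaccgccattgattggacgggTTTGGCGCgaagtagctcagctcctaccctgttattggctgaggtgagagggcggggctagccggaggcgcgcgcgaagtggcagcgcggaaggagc
Windows were at hand for 7 of the 10 genes. The windows of Ccnb1, Gadd45b and Cdkn1a were searched but are not shown. The CHR occurred 2 times each in Cdk1, Mki67 and Top2a, and in none of the windows of Mcm6, Ccnb1, Gadd45b or Cdkn1a. Only the exact letters given above were searched, so variants of the element were not counted. Over all 32851 windows of the same length, 17.9% held at least 1 CHR. The E2F element occurred 3 times in Mcm6, where a pair of the matches overlap, and 1 time in Cdk1, against 0.813% of all windows with a match. The CCAAT box (CCAAT on either strand, present in 37.4% of all windows) occurred 6 times in Top2a, 3 times each in Cdk1 and Mki67, and 2 times each in Mcm6, Ccnb1 and Gadd45b. An E-box (CACGTG, in 7.15% of all windows) was found in Gadd45b alone among the 7 genes. The 2 windows of Cdkn1a held none of these letters. Ccnd1, Ccna2 and Myc were not among them.

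Every value of a library is a whole multiple of a single step. The values were read as TPM, a measure of transcript abundance corrected for length and library size, rounded to whole numbers and divided by a size factor per library. The rounding and the factor are not given in the sources used here. They are called scaled TPM below. On that reading a rounded TPM of 1 is worth between 0.764 and 1.11 in a given library, and a value listed at 0 was read as a TPM that was rounded down to 0. Sequencing depth cannot be read from these values. QuantSeq reads tag the 3′ end of a transcript, whereas TPM divides by transcript length, so long transcripts come out low: the longest annotated transcript of Mki67 has 10061 bases and that of Gadd45b 1284 bases. Hepatocyte markers were abundant in each library, with a sum between 24287 and 53629 scaled TPM over the 7 genes of the list. In 7 libraries the values summed to under 900000 (747258 to 885178, against 908987 or more in the other 47 libraries). The multiples of the step added up to between 948342 and 980641 in every library. A low sum thus reflects a small step and is no measure of depth. These were control replicates 8 and 9, replicates 4, 9, 10 and 13 at the low dose and middle-dose replicate 7, with none at the high dose. All 7 had more leukocyte and Kupffer cell marker RNA than the median mouse (296.9 to 632.2 against a median of 184.8 in the other 47 libraries) and all 7 exceeded the other libraries in the sum of stellate cell markers. Their hepatocyte marker sums lay lower, at 24287 to 37563 against a median of 42445 in the other 47 libraries. Results that changed without them are given both ways below. The libraries were set apart after the data were seen, so a call gained without them is no independent test.

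None of the 10 genes was called against the control group at any dose. Of these, 5 of 10 had a mean of at least 1 over all mice and entered the test (limma on log2(value + 1), all 4 groups in 1 fit, Benjamini-Hochberg adjustment over 11431 rows, adjusted p under 0.05). At the high dose, 0 of 5 were called, with 2.17% of all tested rows called, and 0 of 5 had an unadjusted p under 0.05. At the middle dose, 0 of 5 were called, with 14.2% of all rows called, and 1 of 5 (Cdkn1a) had an unadjusted p under 0.05. At the low dose, 0 of 5 were called, with 1.20% of all rows called, and 0 of 5 had an unadjusted p under 0.05. The Wilcoxon rank-sum test called 0 of 5 at each dose as well. In RNA from liver tissue, fewer cells of a type and less RNA per cell cannot be told apart.

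**Figure D1:**
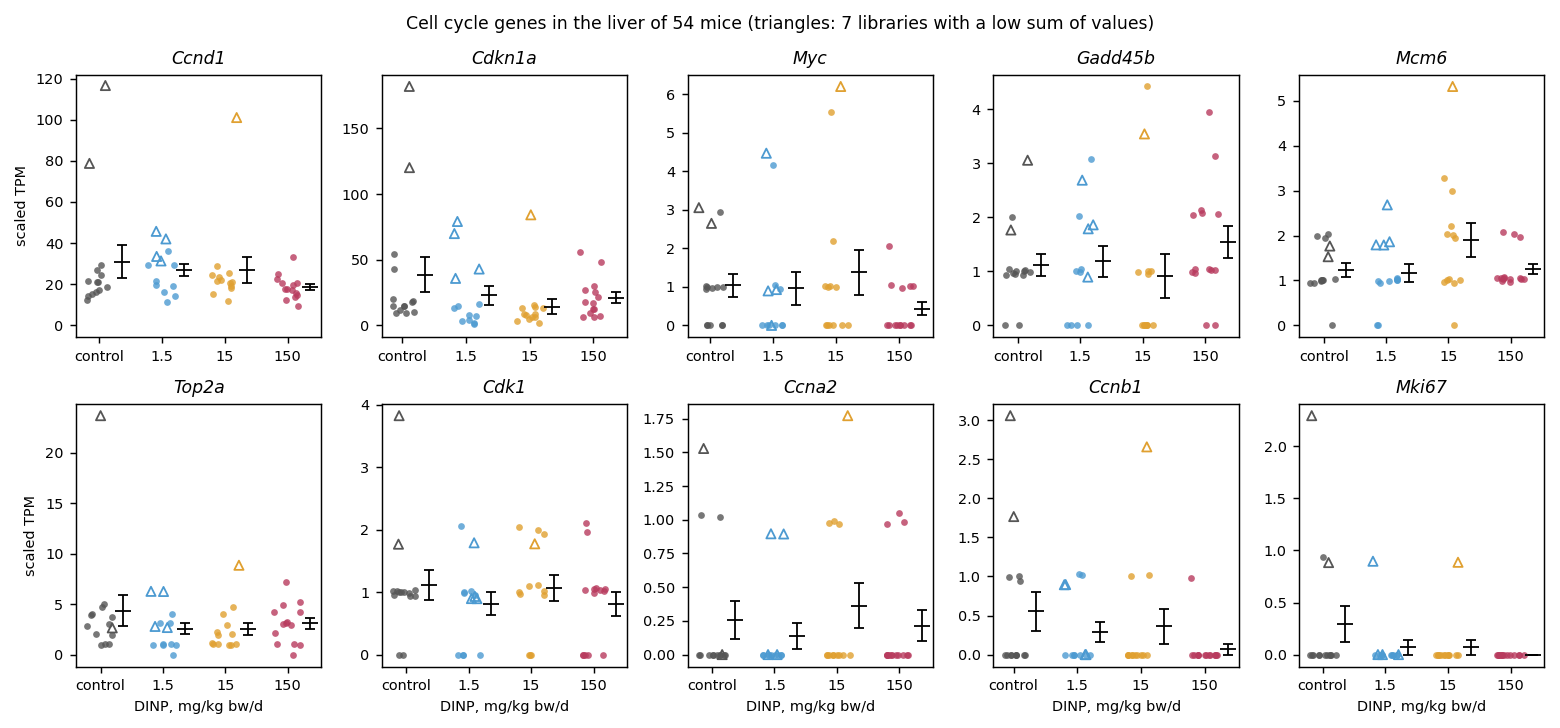
Scaled TPM (linear axis) of the 10 cell cycle genes in each of 54 livers against the dose of DINP in mg/kg bw/d. Points are mice, open triangles are the 7 libraries with a low sum of values, and the black marks are the group mean ± standard error. The highest points of most panels are triangles, and in the high dose group Mki67 lies at 0 in 14 of 14 mice.

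Among the genes of G1, Ccnd1 (chr7:144929931-144939925, minus strand, GRCm38) had a mean of 25.9 scaled TPM, a level per length, over all mice, close to the 24.5 of Cdkn1a. Its value in the control group ranged from 12.5 to 116.6 scaled TPM with a median of 21.1. In the high-dose group, it ranged from 9.61 to 33.5 with a median of 17.7, so that the group overlapped the lower part of the control range. The group means were 31.0 ± 29.6 (SD, n = 14) in the control group, 26.9 ± 10.8 (SD, n = 13) at the low dose, 27.1 ± 22.6 (SD, n = 13) at the middle dose and 18.6 ± 5.91 (SD, n = 14) at the high dose. The log2FC at the high dose was -0.43 (95% confidence interval -0.93 to 0.06, adjusted p = 0.436). The upper limit corresponds to a ratio of 1.04 between the dose group and the control group on the (value + 1) scale. The log2FC was 0.03 at the low dose (adjusted p = 0.979) and -0.07 at the middle dose (adjusted p = 0.892).

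The wide spread of Ccnd1 came from few livers. Control replicates 9 and 8 stood at 116.6 and 78.7 scaled TPM and middle-dose replicate 7 at 101.0, while the other 47 libraries outside the low-sum set did not exceed 36.2. Without the 7 libraries, the control mean was 19.9 ± 5.23 (SD, n = 12), the mean at the high dose was 18.6 ± 5.91 (SD, n = 14), and the log2FC was -0.11 (95% confidence interval -0.42 to 0.20). The other D-type cyclins are expressed in liver too. Ccnd2 was not called at any dose (log2FC 0.07, -0.22 and -0.09 at the low, middle and high dose, adjusted p = 0.838, 0.161 and 0.77). Ccnd3 fell at the middle dose, from 26.5 ± 2.49 (SD, n = 14) to 20.2 ± 2.07 scaled TPM (SD, n = 13; log2FC -0.38, adjusted p = 0.000208), and its log2FC was -0.15 at the high dose (adjusted p = 0.322).

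Cdkn1a (chr17:29090976-29100727, plus strand) had the largest standard errors among the 5 tested genes (0.48 to 0.50 on the log2 scale). In the control group it ranged from 9.12 to 181.9 scaled TPM with a median of 16.5. In the low-dose group, it ranged from 1.04 to 79.1 with a median of 13.2, and at the middle dose from 2.04 to 84.2 with a median of 8.56. At the high dose, the range was 6.27 to 55.9 and the median 17.2, so that the groups overlapped at every dose. In the middle-dose group, 12 of 13 mice were below the control median, as were 9 of 13 at the low dose and 6 of 14 at the high dose. The log2FC was -0.90 at the low dose (95% confidence interval -1.88 to 0.08, adjusted p = 0.45), -1.26 at the middle dose (95% confidence interval -2.25 to -0.28, adjusted p = 0.0741) and -0.44 at the high dose (95% confidence interval -1.40 to 0.53, adjusted p = 0.745).

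The call on Cdkn1a changed with the low-sum libraries. Without middle-dose replicate 7, the only mouse of that group above the control median, Cdkn1a was called lower at the middle dose (log2FC -1.52, adjusted p = 0.0238). Without all 7 libraries the group means were 20.0 ± 14.1 (SD, n = 12) in the control group, 7.69 ± 5.74 (SD, n = 9) at the low dose, 8.56 ± 4.46 (SD, n = 12) at the middle dose and 21.1 ± 15.2 scaled TPM (SD, n = 14) at the high dose. Cdkn1a was then called lower by limma at the low dose (log2FC -1.39, adjusted p = 0.0341, 2.71% of all rows called) and at the middle dose (log2FC -1.08, adjusted p = 0.0374, 10.9% of all rows called). In the high-dose group, the log2FC of Cdkn1a was -0.0036 (95% confidence interval -0.69 to 0.68, 2.11% of all rows called). In that fit it was higher at the high than at the low dose (log2FC 1.39, limma adjusted p = 0.015, 6.08% of all rows called) and higher at the high than at the middle dose (log2FC 1.08, adjusted p = 0.0193, 19.4% of all rows called). The libraries were set apart after the data were seen, all 7 had Cdkn1a above the median of all mice, and they took 2, 4, 1 and 0 mice from the control, low, middle and high dose groups, so that this fit is no independent test of Cdkn1a.

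The other p53 targets were not called more often than all rows at any dose. Of 20 listed targets, 16 were tested, Cdkn1a among them. At the middle dose, 2 of 16 were lower and 0 higher, against 14.2% of all rows called. They were Mdm2, the ubiquitin ligase of p53 (log2FC -0.27, adjusted p = 0.0236), and Bbc3, the death effector PUMA (log2FC -0.60, adjusted p = 0.0412), and without the 7 low-sum libraries Mdm2 was still called and Bbc3 was not. None of the 16 was called at the low or high dose, where 2 and 3 of 16 had an unadjusted p under 0.05. Ccng1, cyclin G1, had a log2FC of 0.07 at the middle dose (adjusted p = 0.753). In the low, middle and high dose groups the median log2FC of the 16 targets was -0.13, -0.11 and -0.13, while that of all tested rows lay within 0.01 of 0. With the 7 low-sum libraries left out, 15 targets were tested and the medians were -0.18, -0.08 and -0.01.

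Myc (chr15:61985391-61990374, plus strand), a growth-promoting transcription factor, was near the lower limit of the table. It was listed at 0 in 27 of 54 mice, in 5 of 14 control mice and in 7 of 13, 6 of 13 and 9 of 14 mice at the low, middle and high dose. Its highest values were 3.06 in the control group, 4.47 at the low dose, 6.20 at the middle dose and 2.05 at the high dose, and the first 3 of these came from low-sum libraries. Control mice averaged 1.04 ± 1.10 and high-dose mice 0.439 ± 0.662 scaled TPM (SD, n = 14 each), and without the low-sum libraries the control mean was 0.737 ± 0.848 (SD, n = 12). In a fit to all rows without a filter, the log2FC at the high dose was -0.44 (95% confidence interval -1.04 to 0.17, adjusted p = 0.642). Gadd45b (chr10:80930073-80932204, plus strand), a stress-induced early gene of the regenerating liver, was listed at 0 in 15 of 54 mice, 7 of them at the middle dose. Its mean level was 1.12 ± 0.767 (SD, n = 14) in the control group, 1.18 ± 1.05 (SD, n = 13) at the low dose, 0.917 ± 1.45 (SD, n = 13) at the middle dose and 1.54 ± 1.11 (SD, n = 14) at the high dose. The log2FC at the high dose was 0.21 (95% confidence interval -0.32 to 0.74, adjusted p = 0.784).

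Mcm6 (chr1:128331590-128359664, minus strand), a subunit of the replicative helicase, took few values in this table. A rounded TPM of 1 was listed in 8 of 14 control mice and in 11 of 14 mice at the high dose, and 2 or more in 5 and 3 of them. In the middle-dose group, 7 of 13 mice had a rounded TPM of 2 or more, with a highest value of 6 in replicate 7. The mean was 1.23 ± 0.561 (SD, n = 14) in the control group, 1.17 ± 0.734 (SD, n = 13) at the low dose, 1.90 ± 1.37 (SD, n = 13) at the middle dose and 1.25 ± 0.425 scaled TPM (SD, n = 14) at the high dose. Neither the log2FC of 0.29 at the middle dose (95% confidence interval -0.08 to 0.66, adjusted p = 0.32) nor that of 0.04 at the high dose (95% confidence interval -0.33 to 0.41, adjusted p = 0.956) passed the test, and the latter turned to -0.01 when all libraries were set to the same sum.

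Of 33 listed genes of DNA replication, 32 were in the table and 24 were tested, Mcm6 among them. At the middle dose, 3 of 24 were higher and 0 lower, or 12.5% against 14.2% of all rows. Pcna, the sliding clamp of the replicative polymerases, rose from 15.7 ± 2.01 (SD, n = 14) to 23.0 ± 6.83 scaled TPM (SD, n = 13; log2FC 0.48, adjusted p = 0.000439), and 13 of 13 mice were above the control median. Without the 7 low-sum libraries its log2FC was 0.42 (adjusted p = 0.00249). Gmnn, the licensing inhibitor geminin, was higher (log2FC 0.57, adjusted p = 0.0277), but without the 7 low-sum libraries it no longer passed (log2FC 0.43, adjusted p = 0.137). In the same fit 3 of 24 were called higher at the middle dose, against 10.9% of all rows, among them the replication factor Mcm10 (log2FC 0.35, adjusted p = 0.0393). That fit also called 1 of 24 lower at the low dose, against 2.71% of all rows, the DNA ligase Lig1 (log2FC -0.61, adjusted p = 0.0416). At the high dose, 0 of 24 were called and 6 of 24 had an unadjusted p under 0.05, with a median log2FC of -0.11. The log2FC of Pcna at the high dose was 0.07 (adjusted p = 0.798). At the low dose, 0 of 24 were called and 1 of 24 had an unadjusted p under 0.05.

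Top2a (chr11:98992943-99024189, minus strand), which untangles DNA before mitosis, had the highest mean level of the 5 genes Top2a, Cdk1, Ccna2, Ccnb1 and Mki67, at 3.15 scaled TPM, a level per length, against 0.948 for Cdk1. It ranged from 0.989 to 23.7 scaled TPM with a median of 2.97 in the control group, and from 0 to 7.25 with a median of 3.10 at the high dose. The groups at the low and middle dose had medians of 2.68 and 1.93. The log2FC was -0.44 at the low dose, -0.42 at the middle dose and -0.20 at the high dose (adjusted p = 0.611, 0.401 and 0.831), the last with a 95% confidence interval from -0.82 to 0.41. Control replicate 8 alone held the value of 23.7, and without the 7 low-sum libraries the log2FC at the high dose was -0.0036 (95% confidence interval -0.53 to 0.53).

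Cdk1 (chr10:69335146-69352938, minus strand), the kinase that starts mitosis, was listed at 0 in 14 of 54 mice and at a rounded TPM of 1 in most of the others. Control mice averaged 1.11 ± 0.895 and high-dose mice 0.807 ± 0.716 scaled TPM (SD, n = 14 each), and without the low-sum libraries the control mean was 0.826 ± 0.387 (SD, n = 12). Ccna2 (chr3:36564865-36572150, minus strand), the cyclin of S and G2 phase, was listed above 0 in 3 of 14 control mice, 2 of 13 at the low dose, 4 of 13 at the middle dose and 3 of 14 at the high dose. Ccnb1 (chr13:100778650-100786570, minus strand), the mitotic cyclin, was above 0 in 5 of 14 control mice, 4 of 13 at the low dose, 3 of 13 at the middle dose and 1 of 14 at the high dose. The marker of cycling cells Mki67 (chr7:135689784-135716361, minus strand) was above 0 in 3 of 14 control mice, 1 of 13 at the low dose, 1 of 13 at the middle dose and 0 of 14 at the high dose. When the low-sum libraries were left out, Ccnb1 was above 0 in 3 of 12 control mice, Ccna2 in 2 of 12 and Mki67 in 1 of 12. No fold change is given for Mki67 at the high dose, where it is listed at 0 in each mouse. Over all mice, neither of these cyclins, nor Cdk1 or Mki67, was listed above 0 in more mice at the high dose than in the control group. For Ccna2 the counts were equal, at 3 of 14 in each. Without the low-sum libraries Ccna2 was above 0 in 2 of 12 control mice and 3 of 14 high-dose mice.

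In the fit to all 20162 rows, which includes these 4 genes, 0 of the 10 genes were called at any dose. In the high-dose group, the log2FC on the log2(value + 1) scale was -0.24 for Cdk1, -0.03 for Ccna2 and -0.39 for Ccnb1 (adjusted p = 0.735, 1 and 0.493). The upper 95% confidence limits were 0.19, 0.31 and 0.0021, in the same order. Mki67 alone of the 10 had an unadjusted p under 0.05 at that dose (adjusted p = 0.462), and of its 3 control mice above 0, 2 were the low-sum libraries of replicates 8 and 9. Ccna2 overlaps Exosc9 and Ccnd1 overlaps LTO1 on the opposite strand, Cdkn1a, Mki67 and Top2a overlap gene models without an established name, and whether the counting used the strand is not given in the sources used here.

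**Figure D2:**
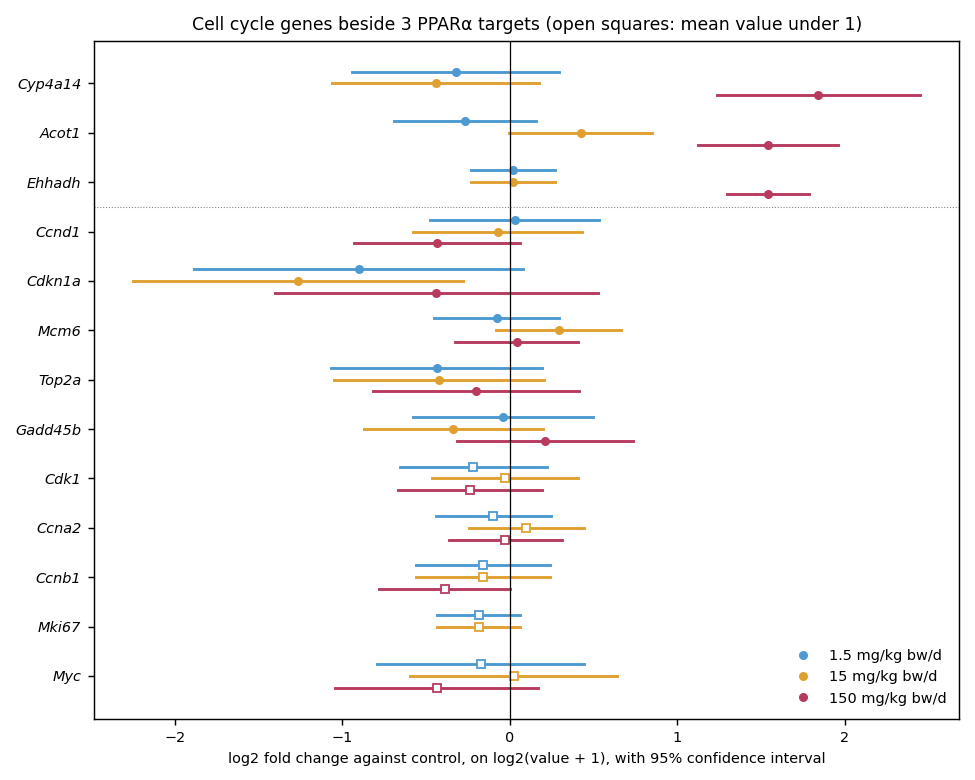
Log2 fold change against the control group on log2(value + 1), with 95% confidence intervals, for 3 PPARα targets (above the dotted line) and the 10 cell cycle genes at the low, middle and high dose. Open squares mark the 5 genes with a mean under 1, taken from the fit to all rows, with Mki67 not drawn at the high dose, where it is listed at 0 in each mouse; at the high dose the intervals of the 3 PPARα targets lie above 0, whereas no interval of a cell cycle gene does.

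The PPARα targets rose in the same livers. Of 24 listed targets 23 were tested, and 14 of 23 were higher at the high dose, or 60.9% against 2.17% of all rows, with 0 lower and a median log2FC of 0.72. Ehhadh, the bifunctional enzyme of peroxisomal β-oxidation, rose from 15.8 ± 4.99 to 47.5 ± 11.7 scaled TPM (SD, n = 14 each; log2FC 1.54, adjusted p = 1.13e-13) without overlap of the groups. Cyp4a14, a fatty acid ω-hydroxylase, rose from 357.6 ± 136.7 to 1207 ± 297.2 (SD, n = 14 each; log2FC 1.84, adjusted p = 7.28e-05), again without overlap. Acot1, a cytosolic acyl-CoA thioesterase, rose with a log2FC of 1.54 (adjusted p = 1.47e-06), Cyp4a31 with 1.73 (adjusted p = 4.97e-08) and the lipase inhibitor Angptl4 with 1.47 (adjusted p = 9.84e-09). In the middle-dose group, 4 of 23 were higher, among them Fabp1, Angptl4 and Eci1 (log2FC 0.87, 0.55 and 0.32), or 17.4% against 14.2% of all rows. The median log2FC of the 23 was 0.02 at that dose, with 12 above 0 and 11 below. Cyp4a14 lay below the control median in 12 of 13 middle-dose mice, whereas Acot1 and Ehhadh lay above it in 9 and 8 of 13. Without the 7 low-sum libraries 13 of 23 were called at the high dose and 3 of 23 at the middle dose. The shares of all rows called in that fit were 2.11% and 10.9%. In the low-dose group, 0 of 23 were called and 3 of 23 had an unadjusted p under 0.05. There, 2 of 23 were lower once the 7 low-sum libraries were left out, against 2.71% of all rows, the fatty acid translocase Cd36 (log2FC -1.29, adjusted p = 0.00467) and the peroxisomal thiolase Acaa1b (log2FC -0.51, adjusted p = 0.0213), and the median log2FC went from -0.04 to -0.27.

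The wider list of G2 and mitosis gave no call at the high dose. Of its 50 genes 49 were in the table, and 31 of these were listed at 0 in more than 27 of 54 mice. The 14 tested genes, Top2a among them, had a median log2FC of -0.33 at the high dose, with 13 of 14 below 0 and 2 with an unadjusted p under 0.05. Of the 14, 0 were called, against 2.17% of all rows. Without the 7 low-sum libraries 12 genes were tested and the median was -0.21, with 0 called, against 2.11% of all rows. Markers of some other liver cells were low at that dose too, with none called. These were 6 of 6 stellate cell markers (median log2FC -0.33) and 10 of 10 leukocyte and Kupffer cell markers (median -0.21), all below 0. Without the 7 libraries these medians were -0.19 and 0.0050. The others were mixed: 4 of 6 endothelial (median -0.01), 1 of 3 cholangiocyte (median 0.13) and 3 of 5 erythroid markers (median -0.13) lay below 0. The part of these cells in the values of the mitosis list was not tested. At the middle dose, 1 of 14 was called, or 7.14% against 14.2% of all rows. It was Wee1, an inhibitory kinase of Cdk1 that is also a clock output (log2FC 0.70, adjusted p = 0.0481). Clock genes moved in that group, with 5 of 14 tested genes higher (35.7% against 14.2% of all rows), Wee1, Nr1d2, Per3, Usp2 and Dbp (of which Nr1d2, Per3 and Usp2 were still called without the 7 low-sum libraries), and their part in the value of Wee1 was not tested. Without the 7 libraries Wee1 had a log2FC of 0.61 (adjusted p = 0.154). At the low dose, 1 of 14 was called, or 7.14% against 1.20% of all rows. Pttg1, the separase inhibitor securin, was higher there (102.0 ± 13.4 in the control group, n = 14, against 130.4 ± 15.7 scaled TPM, n = 13; SD; log2FC 0.35, adjusted p = 0.0479). Pttg1, Hmgb2, Smc4 and Smc2 made up 80.0% of the summed value of the list.

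**Figure D3:**
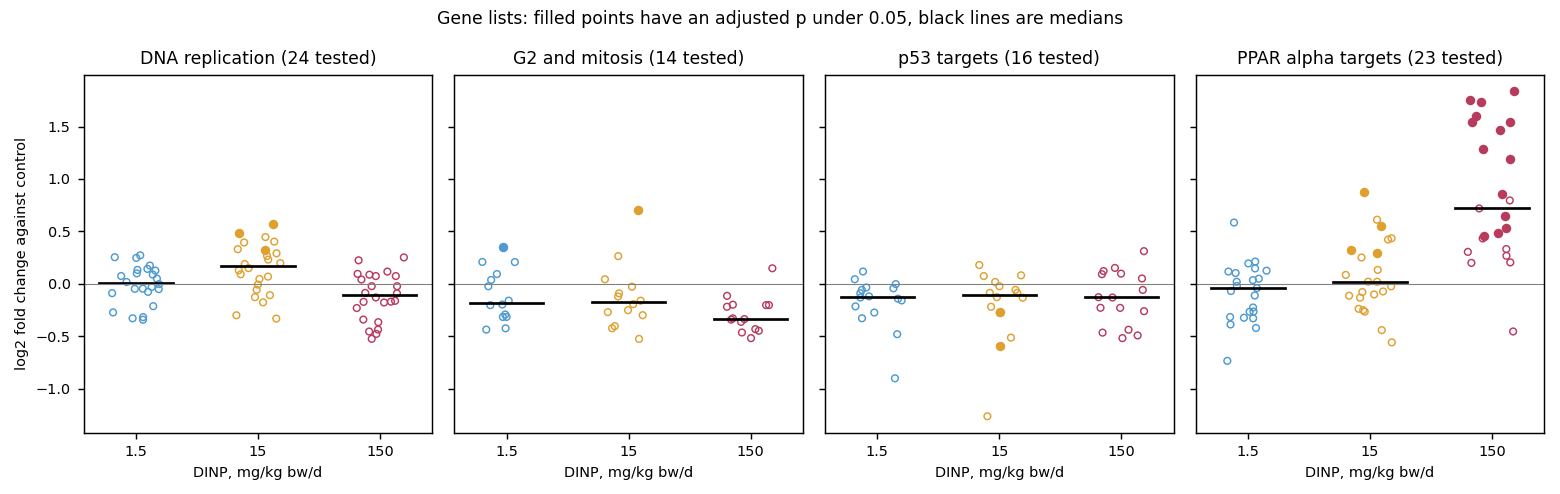
Log2 fold change against the control group of the tested genes in 4 lists at the low, middle and high dose. Filled points passed an adjusted p under 0.05 and black lines are medians: 14 of 23 PPARα targets are filled at the high dose, and no gene of DNA replication, G2 and mitosis or the p53 targets is.

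The regulators upstream of S phase were taken as a list of G1 genes and a list of CDK inhibitors, which oppose entry. The genes called at the middle and high dose were lower than in the control group in both lists. For the G1 list the share called at the middle dose was close to that of all rows. Of 17 genes in the list of G1 cyclins, kinases and the E2F and RB families, 14 were tested, Ccnd1 among them. In the middle-dose group, Ccnd3 and the transcription factor E2f2 (log2FC -0.59, adjusted p = 0.00334) were lower, 2 of 14 or 14.3% against 14.2% of all rows. At the high dose, Ccne2, a partner of CDK2 at the G1/S transition, was lower, from 3.90 ± 1.70 to 1.63 ± 1.46 scaled TPM (SD, n = 14 each; log2FC -1.02, adjusted p = 0.0173), 1 of 14 or 7.14% against 2.17% of all rows. In the low-dose group, 0 of 14 were called and 1 of 14 had an unadjusted p under 0.05. Of 7 CDK inhibitors 5 were tested, Cdkn1a among them, and 1 was lower at the middle dose, Cdkn1b, which encodes p27 (log2FC -0.39, adjusted p = 0.0113), 20% against 14.2% of all rows. In the high-dose group, it was Cdkn2d, which encodes p19 of the INK4 family (log2FC -0.61, adjusted p = 0.0376), 20% against 2.17% of all rows. Without the 7 low-sum libraries Cdkn2d and Cdkn1b were no longer called, while Ccnd3, E2f2 and Ccne2 still were.

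Among the immediate early genes 1 was called. Of 24 genes 20 were tested, Gadd45b among them, and Jund, a member of the AP-1 family, was lower at the middle dose (log2FC -0.47, adjusted p = 0.00251) and at the high dose (log2FC -0.41, adjusted p = 0.0312). This is 5% of the list, against 14.2% of all rows at the middle dose and 2.17% at the high dose. The median log2FC of the 20 genes was -0.24 at the high dose, and -0.09 without the 7 low-sum libraries. In that fit Jun, of the AP-1 family too, was also lower at the middle dose (log2FC -0.50, adjusted p = 0.0176). The MYC family member Mycl was lower at the low dose (log2FC -0.56, adjusted p = 0.0416). That made 2 of 20 called at the middle dose, against 10.9% of all rows, and 1 of 20 at the low dose, against 2.71%. Of 14 hepatocyte growth factors and their receptors 11 were tested and 1 was called, the EGF receptor ligand Btc at the middle dose (log2FC -0.73, adjusted p = 0.0316), 9.09% against 14.2% of all rows. With those 7 libraries left out, Btc was no longer called. The EGF receptor, Egfr, was then called higher at the low dose (log2FC 1.07, adjusted p = 0.0121), 1 of 11 against 2.71% of all rows. With the 7 libraries kept, the log2FC of Egfr was 0.43 (adjusted p = 0.561).

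Between the doses, too, 0 of the 5 tested genes were called by limma or by the Wilcoxon test, and 0, 0 and 1 of 5 had an unadjusted p under 0.05 in limma for the middle against the low, the high against the low and the high against the middle dose. The background was 21.4% of all rows for the middle against the low dose, 4.61% for the high against the low dose and 20.0% for the high against the middle dose. For the high against the middle dose, Gadd45b had a log2FC of 0.55 (95% confidence interval 0.01 to 1.08, adjusted p = 0.143) and Cdkn1a of 0.83 (95% confidence interval -0.16 to 1.81, adjusted p = 0.243). For the middle against the low dose Mcm6 had a log2FC of 0.37 (95% confidence interval -0.01 to 0.75, adjusted p = 0.164), and it was called in 1 of 26 fits that left out a single mouse, that without middle-dose replicate 9 (adjusted p = 0.0493). For the high against the low dose, Ccnd1 had the smallest adjusted p (log2FC -0.46, adjusted p = 0.332). The comparisons of each dose with the control group share the same 14 control mice, and those between doses share the dose groups.

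The genes were high together in a few livers. Control replicate 8 held the highest control value of 8 of the 10 genes, among them Cdkn1a (181.9), Top2a (23.7), Ccnb1 (3.06) and Mki67 (2.29 scaled TPM). Middle-dose replicate 7 held the highest value of its group for 8 of the 10 genes as well, with Ccnd1 at 101.0, Cdkn1a at 84.2, Myc at 6.20 and Mcm6 at 5.32 scaled TPM. These were also the libraries with the highest leukocyte and Kupffer cell marker sums, at 632.2 and 583.1. Over the 54 mice, after the mean of each group was taken off, the log2 values of Ccnd1 and Cdkn1a had a Pearson r of 0.72 (Spearman 0.60), and their r with the leukocyte marker sum was 0.72 and 0.70. Over the 47 mice outside the low-sum set these r were 0.42, 0.19 and 0.30. The points share their library, its scaling and its cell composition, and the part of the cell composition was not tested. No leukocyte or Kupffer cell marker (0 of 10 tested of 13 listed, with Itgax, Cd3e and Cd79a at 0 in most mice) was called at any dose. An unadjusted p under 0.05 was found for 0, 0 and 1 of 10 at the low, middle and high dose. Their sum ranged from 140.7 to 632.2 in the control group, 126.4 to 478.4 at the low dose, 157.0 to 583.1 at the middle dose and 129.0 to 288.6 scaled TPM at the high dose. Of 6 stellate cell, 3 cholangiocyte and 5 erythroid markers tested none was called either, and of 6 endothelial and 7 hepatocyte markers Pecam1 (log2FC -0.52) and Ttr (log2FC 0.42) were called at the middle dose, Ttr no longer without the 7 libraries.

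**Figure D4:**
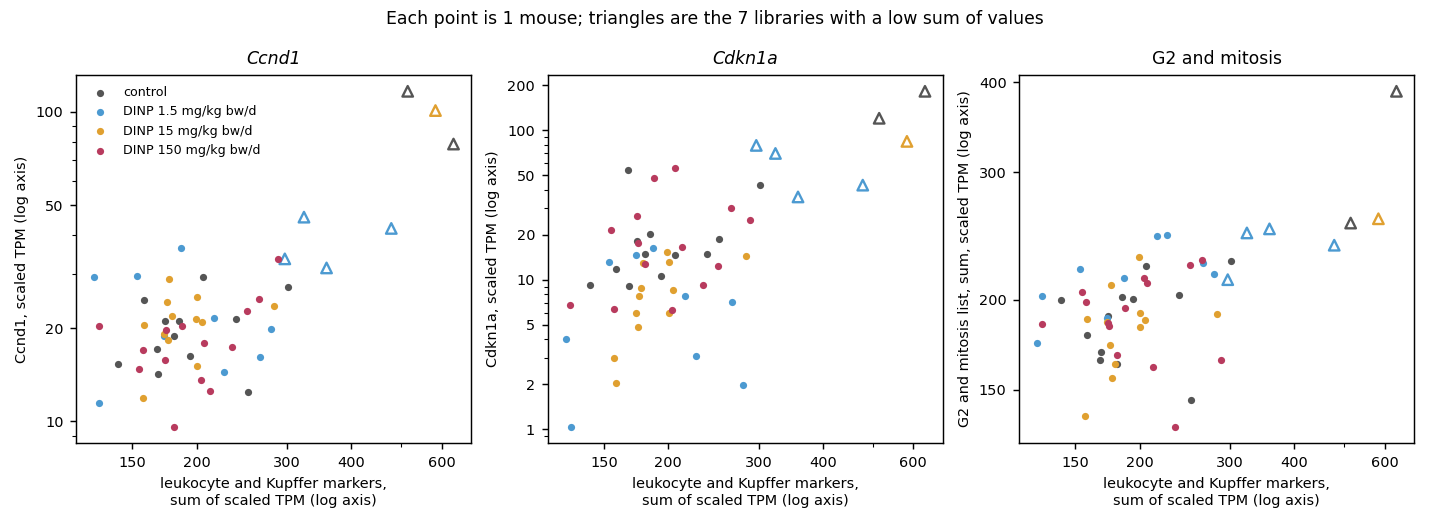
Ccnd1, Cdkn1a and the sum of the 49 genes of G2 and mitosis in each mouse, in scaled TPM on log axes, against the sum of leukocyte and Kupffer cell markers in scaled TPM on a log axis. Colours are the dose groups and triangles the 7 low-sum libraries, which lie towards the right. The 14 high-dose mice do not exceed a marker sum of 288.6.

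The genes most like the tested members, by Pearson r over the 54 mice with the group means taken off, were as follows. For Ccnd1 they were Gstm3 (r = 0.78), the macrophage elastase Mmp12 (0.77) and lipoprotein lipase, Lpl (0.76). For Cdkn1a they were Anxa2 (0.87), the antioxidant transcription factor Nfe2l2 (0.83) and the tubulin Tubb2a (0.83). For Top2a they were the matrix protein Sparc (0.70), Klf6 (0.69) and Cd93 (0.67), for Mcm6 Bbln (0.76), Tmem43 (0.75) and Gstm1 (0.65), and for Gadd45b Tm6sf1 (0.56), Faap20 (0.55) and Sec22b (0.55). Over the 47 mice outside the low-sum set, r fell to 0.32, 0.22 and 0.01 for the genes most like Ccnd1, and remained at 0.67, 0.55 and 0.60 for those most like Cdkn1a.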

How the data were processed

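Liver RNA of 54 mice was sequenced by the authors as QuantSeq 3′ mRNA-Seq libraries and processed with nf-core/rnaseq 3.14.0 (STAR, RSEM and Salmon) on GRCm38. The deposited values are a scaled signal: every value of a library is a multiple of one smallest value (0.764 to 1.11), and the multiples add up to 948342 to 980641. They were read as TPM that the authors rounded and divided by a size factor per library, steps not given in the sources used here. Their own tests used DESeq2, whose results are not used here. Depth is not kept, so that no counting error can be given, and no count test was run. Groups came from the labels, with 0 columns left unmapped. Rows whose mean over all mice reached 1 (11431) entered limma 3.58.1 under R 4.3.3, with lmFit and trended eBayes on log2(value + 1), all 4 groups in 1 fit, Benjamini-Hochberg adjustment and a threshold of 0.05. Fold changes on this scale understate those of low genes. On simulated data for 150 mg/kg bw/d against control with 11403 rows tested, 193 of 200 shifted genes were recovered (median log2FC 1.02 on log2(value + 1)) and 9 others called. Recovery was not split by level or spread, so it does not give the power for the 10 members, many of them near 0 or widely spread. In the real data Cdkn1a was not called at the middle dose with a log2FC of -1.26 (standard error 0.49). The members and gene lists were chosen with earlier results of these data known. Genes named are the 10 members, up to 4 called genes per list and dose with the smallest adjusted p, 6 comparators set beforehand (Ccng1, Mdm2, Ccnd2, Pcna, Cyp4a14 and Acot1) and the 3 genes most like each tested member; Hmgb2, Smc4 and Smc2, the leukocyte genes at 0 and genes called only without the 7 low-sum libraries were named after their values were seen. The values of 2 genes that this rule would name are not reported here. Positions are from GENCODE M21 on GRCm38 and promoter windows from RefSeq. Alternatives were other pseudocounts (0.1 and 5), other filters (none, or a mean of 5), quantile normalization, an equal sum per library, 2 groups alone, array weights, a replicate block, a Wilcoxon test, medians, a log2FC beyond 0.5 and each mouse left out; leaving out 7 low-sum libraries was added after the data were seen. Replicate numbers did not pair mice: over 79 same-numbered pairs the mean correlation of deviations was -0.0025 (-0.359 to 0.243).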

Additional observations from a re-analysis of the deposited data

How the results depend on the processing

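No member was called in any of the 6 comparisons with pseudocounts of 0.1 and 5, without the filter, with a minimum mean of 5, with quantile normalization, with an equal sum in each library, with 2 groups alone, with array weights or with the Wilcoxon test. The replicate block gave 0 calls in each of the 6 comparisons too. Without the 7 low-sum libraries, 1 member, Cdkn1a, was called at the low and middle dose against control and at the high against the low and the middle dose. With single mice left out, the number of members called was 0 to 1 for the middle dose against control and 0 to 1 for the middle against the low dose, and 0 in the other comparisons. Over these fits the log2FC of Cdkn1a was -1.12 to -0.68 at the low dose, -1.52 to -1.04 at the middle dose and -0.57 to -0.22 at the high dose. Log2FC near 0 changed sign, with no call on either side: at the low dose Ccnd1 (0.03) ranged from -0.043 to 0.20, Mcm6 (-0.08) from -0.16 to 0.0083 and Gadd45b (-0.04) from -0.13 to 0.039 with single mice left out, and Gadd45b was 0.00555 with a pseudocount of 5. At the middle dose Ccnd1 (-0.07) ranged from -0.25 to 0.10 and was 0.076 without the 7 low-sum libraries. At the high dose Mcm6 (0.04) ranged from -0.045 to 0.078 and was -0.011 with an equal sum in each library. Among the members under the filter, Myc (0.02) ranged from -0.14 to 0.11 and Cdk1 (-0.03) from -0.10 to 0.070 at the middle dose, and Ccna2 (-0.03) from -0.090 to 0.058 at the high dose. The difference of group medians at the high dose was 0.058 for Cdkn1a and 0.047 for Top2a. With the threshold on the adjusted p alone and no single mouse left out, the number of all rows called was 59 to 308 at the low dose (137 as reported), 679 to 1621 at the middle dose (1621) and 186 to 488 at the high dose (248), and with a log2FC beyond 0.5 as well it was 42, 425 and 96. The cause of these changes was not tested. The rounding to whole TPM limits Cdk1, Ccna2, Ccnb1, Mki67 and Myc, whose values are mostly 0 or 1 step.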
